A study of Homo sapiens with 18 samples.

Results

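The ribosome biogenesis and RNA polymerase I genes described here are 40 genes chosen for their known role in making ribosomes. They were found in the table of 58735 genes by matching each Ensembl identifier to its symbol, with no use of expression values. The list itself was chosen with earlier results of these data known, so the counts below are descriptions and not a blind test. All 40 matched 1 row each, and all 40 were among the 17346 genes that passed the filter on low counts. Messenger RNA was sequenced from RPMI-8402, a human cell line long established from T-cell acute lymphoblastic leukaemia (T-ALL). The line carried either a control guide without a target (NT) or a PIK3R1 knockout (KO), and PIK3R1 encodes a regulatory subunit of PI3K, a lipid kinase of growth signalling. For 24 h they received the vehicle DMSO, the Notch inhibitor CB-103, or the gamma-secretase inhibitor LY3039278 (GSI), which keeps Notch receptors from being cleaved, at doses that no source used here gives. Each of the 6 groups held 3 replicate libraries. Nothing states that replicates were separate cultures, so p-values measure only the spread between these libraries, and neither is it stated whether the KO cells were a clone or a pool.

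Ribosomes are assembled in the nucleolus, where RNA polymerase I transcribes the long precursor of most ribosomal RNA. Small nucleolar ribonucleoproteins (snoRNPs) guide methylation and pseudouridylation of that precursor, the small-subunit processome cuts and folds it, and a second series of factors matures the large subunit. In T-ALL, active Notch drives cell growth partly through MYC, a transcription factor that binds the E-box CACGTG and is known for activating ribosome biogenesis genes.

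Promoter windows are shown first because the members share this element more often than other genes do. RefSeq windows (GRCh38.p14) from 250 bases before to 50 bases after the start were found for 34 of the 40 members, and POLR1E, NOP58, RRP12, BOP1, RRS1 and NOLC1 had none in the table. The 34 members had 43 windows, and a gene counted if any of its windows held a motif. CACGTG occurred in 16 of the 34 members (47.1%), against 8.78% of the 27305 genes with a window and 12.1% of the 11614 of these that were tested for expression. In 11 of the 34 members (32.4%), against 2.23% of the tested genes, it began within 20 bases of the start. Each of these 11 is printed below 5′ to 3′ on the strand of its gene, as 30 bases with the E-box in capitals.
FBL: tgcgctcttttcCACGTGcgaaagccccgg
GNL3: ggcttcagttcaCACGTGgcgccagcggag
MRTO4: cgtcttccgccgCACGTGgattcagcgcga
NAT10: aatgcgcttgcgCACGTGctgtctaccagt
NOP10: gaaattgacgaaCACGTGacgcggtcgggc
NOP14: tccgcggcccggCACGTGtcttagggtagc
PES1: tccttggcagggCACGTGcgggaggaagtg
RRP9: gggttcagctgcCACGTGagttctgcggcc
UTP20: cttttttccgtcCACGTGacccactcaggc
UTP4: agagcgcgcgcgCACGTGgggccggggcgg
WDR43: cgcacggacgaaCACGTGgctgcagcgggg
These stretches lay, in GRCh38.p14 with the strand in brackets, at the following positions: FBL at chr19:39846356-39846385 (minus), GNL3 at chr3:52686026-52686055 (plus), MRTO4 at chr1:19251807-19251836 (plus), NAT10 at chr11:34105602-34105631 (plus), NOP10 at chr15:34343130-34343159 (minus), NOP14 at chr4:2963374-2963403 (minus), PES1 at chr22:30591880-30591909 (minus), RRP9 at chr3:51941892-51941921 (minus), UTP20 at chr12:101280083-101280112 (plus), UTP4 at chr16:69132621-69132650 (plus), WDR43 at chr2:28894658-28894687 (plus). The first base of the E-box stood between -16 (UTP4) and 16 (NOP14) relative to the start. With only the 250 bases before the start, which leaves out the E-boxes behind it, 6 of 34 members (17.6%) held the motif, against 7.73% of all genes with a window. The ETS motif CCGGAAG was in 15 of the 34 members (44.1%), against 21.4% of tested genes. TGGGAA, the core bound by the Notch partner RBPJ, was in 9 (26.5%), against 27.9% of tested genes. Other motifs searched on both strands were CACGCG (35.3% of members, 21.4% of tested genes), the palindrome of NRF1 (2.94% and 2.68%), GGGCGG (67.6% and 73.4%), CCAAT (47.1% and 43.2%) and TATAAA (2.94% and 8.94%). CACGTG and the NRF1 motif read the same on both strands, and no motif contains another. These are letter matches in a window, not measured binding.

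The libraries held between 30416183 and 43558387 estimated reads, and the members had between 318 and 46513 reads per library on average. The targeted gene PIK3R1 had 44.3, 45.5 and 42.5 CPM (reads scaled to the total of a library) in the vehicle-treated NT libraries and 23.1, 21.3 and 23.2 CPM in their KO counterparts. KO libraries were also below NT libraries under GSI, while the ranges overlapped under CB-103, at 30.9, 33.4 and 29.03 CPM in NT and 25.9, 29.9 and 27.6 CPM in KO libraries. MYC went from 124, 127 and 116 CPM under DMSO to 27.2, 25.6 and 27.0 under CB-103 and 32.5, 32.4 and 29.5 under GSI in NT cells. Of the T-cell markers, CD3E was at 204 to 384 CPM and TAL1 at 27.8 to 66.8 CPM in every library, while PTCRA was at 0 to 0.200 CPM. Others varied more. In NT cells mean CD2 went from 64.6 CPM under DMSO to 5.23 under CB-103 and 14.8 under GSI, and LMO1 from 195 to 41.0 and 23.0. Mean CD7 under DMSO was 4.31 CPM in NT and 21.9 in KO cells. The 10 T-cell markers summed to 1868 to 1951 CPM in NT DMSO, 957 to 1061 in NT CB-103 and 1373 to 1404 in NT GSI libraries. In KO cells the sums were 1544 to 1641, 1048 to 1112 and 1346 to 1418 CPM. Markers of B cells, myeloid and erythroid cells summed to at most 2.28 CPM per list, and among markers of adherent cells COL1A1 reached 25.6 CPM, with the others below 1 CPM. Mitochondrial reads ranged from 1.69% to 5.51% of a library, with 5.51%, 1.90% and 3.95% in the 3 NT GSI libraries. Their mean was 3.34% in NT and 1.79% in KO cells under DMSO and 5.23% and 2.24% under CB-103, and their part in the differences below was not tested. Libraries numbered 1 stood apart: 2488 of 17346 genes (14.3%) differed between replicate 1 and the others within groups, as did 12 of the 40 members, 11 of them higher in replicate 1, led by WDR12 (0.52 on the log2 scale) and NCL (0.29). Leaving each library out in turn, and all replicates 1 together, is therefore reported where it matters. In bulk RNA, fewer cells of a kind and less RNA per cell cannot be told apart.

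Both inhibitors lowered most of these genes. Together the members took 0.759% ± 0.00691 (SD, n = 3) of all reads in NT DMSO libraries, 0.585% ± 0.0122 under CB-103 and 0.540% ± 0.0123 under GSI. In KO cells the shares were 0.761% ± 0.0150, 0.588% ± 0.0199 and 0.599% ± 0.0193. In NT cells, 31 of 40 members fell with CB-103 and 3 rose at an adjusted p under 0.05, where 28.7% of all tested genes fell and 29.5% rose. The median member changed by -0.52 on the log2 scale, against 0.04 for all genes. With GSI, 38 of 40 fell and none rose, where 15.0% of all tested genes fell and 9.67% rose, and the median was -0.59 against 0.01. Scaled by library totals in place of trimmed means, GSI left 2679 of all genes higher and 1848 lower, against 1677 and 2600, while 37 members were lower and none higher. For all 40 members, the 3 NT GSI libraries lay below the 3 NT DMSO libraries, as they did for 22.2% of all tested genes. In KO cells, 31 fell and 3 rose with CB-103 (23.7% and 24.9% of all genes, median -0.38), and 31 fell and none rose with GSI (9.58% and 9.69%, median -0.39). For the rises with GSI, edgeR's quasi-likelihood test at an unadjusted p under 0.05 also called none in NT cells and none in KO cells, and DESeq2's Wald test at that threshold called none in NT cells and 1 in KO cells, NOP10 (0.13, adjusted p = 0.149 by DESeq2), which is named here after its value was seen. Calls lost without at least 1 library were those of RRP9 (NT, CB-103), NOP10 and WDR12 (NT, GSI), POLR1E and WDR12 (KO, CB-103) and DKC1, NHP2, UTP4, NIP7 and NCL (KO, GSI). There were 26 members that fell in all 4 comparisons, as did 3.86% of all tested genes. CB-103 and GSI are compared with the same DMSO libraries within a genotype, so their values are given side by side and not as independent evidence of each other.

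**Figure D1:**
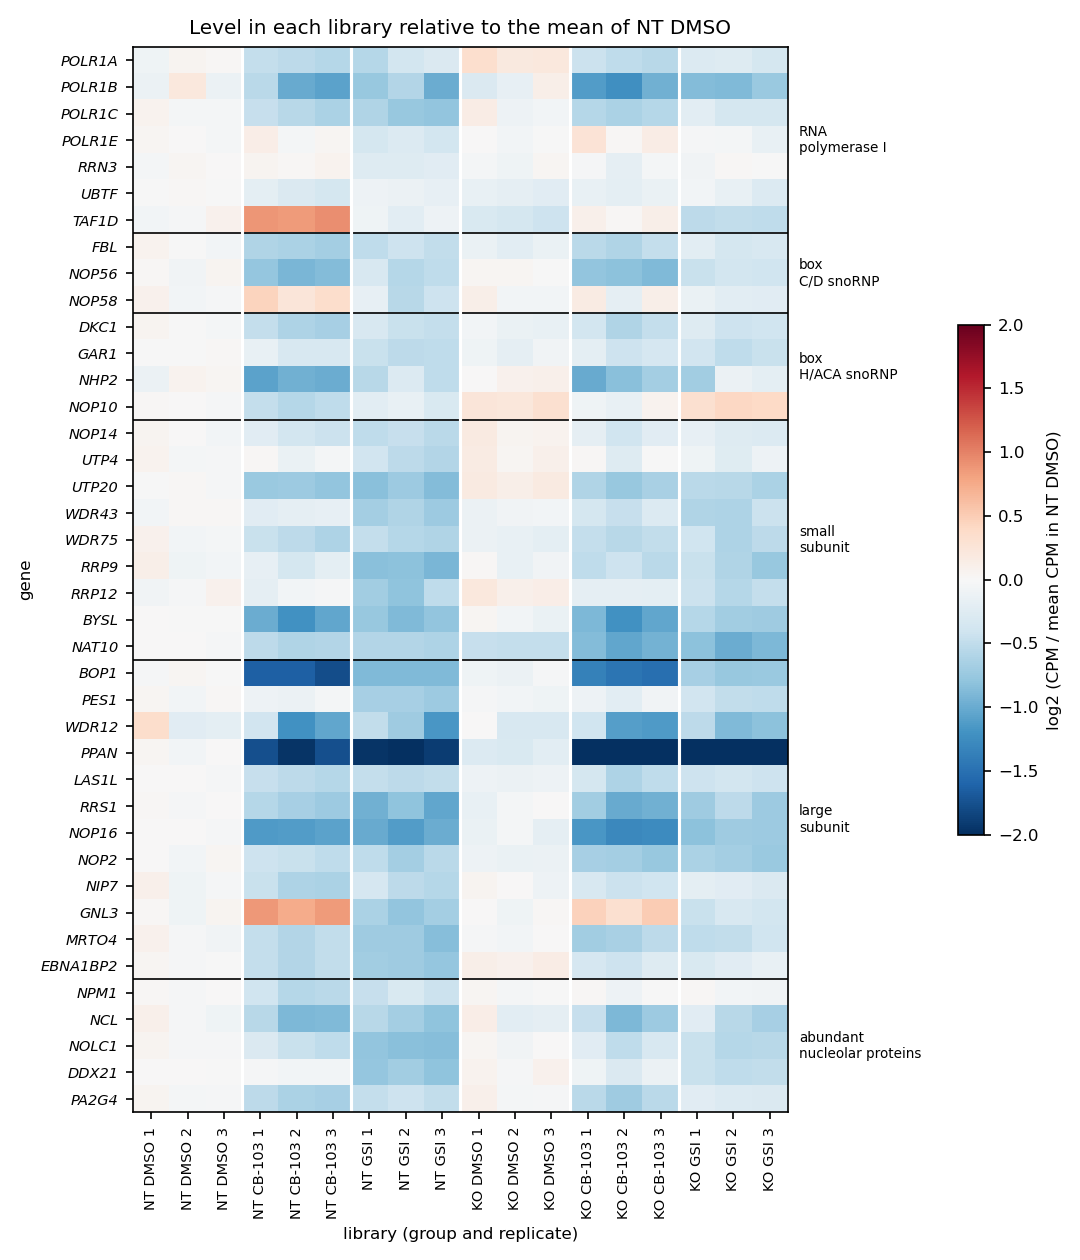
Level of each member (rows, grouped by role) in each of the 18 libraries (columns, by group and replicate), as log2 of CPM over the mean CPM of NT DMSO, with colours limited to -2 and 2. Most rows are blue under both inhibitors, PPAN most deeply, while TAF1D and GNL3 are red under CB-103 and WDR12 is highest in replicate 1.

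Levels per length set the members apart widely. In NT DMSO libraries, NPM1 stood at 2381 ± 10.2 TPM (reads scaled to transcript length and library total, mean ± SD, n = 3), NCL at 537 ± 33.9 and FBL at 355 ± 13.8. At the other end, RRS1 (9.04 ± 0.0463) and POLR1A (9.05 ± 0.509) did not differ beyond their spread. These sums take in all transcripts of a gene. For NPM1 the transcript with the most TPM over all libraries was annotated as retaining an intron, with 33.3% of its TPM in NT DMSO libraries. The same held for GAR1 (38.5%), WDR12 (50.9%) and PPAN (35.4%).

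Among genes of RNA polymerase I, the 2 largest subunits and the shared subunit POLR1C fell with both inhibitors, whereas RRN3 and UBTF were called in 1 inhibitor comparison each and TAF1D rose with CB-103. POLR1A (chr2:86020216-86106155 in hg38), the largest catalytic subunit, stood at 82.1, 89.9 and 88.1 CPM under DMSO, 62.1, 60.3 and 58.4 under CB-103 and 58.7, 66.9 and 71.0 under GSI in NT cells. The KO libraries had 109, 99.7 and 101 CPM under DMSO, 64.3, 60.7 and 59.3 under CB-103 and 71.4, 72.6 and 68.2 under GSI. Every treated library was below every DMSO library of its genotype, with log2 changes of -0.52 ± 0.063 (SE) for CB-103 and -0.40 ± 0.063 for GSI in NT cells and -0.75 ± 0.063 and -0.54 ± 0.063 in KO cells. POLR1B, the second-largest subunit, stood at 48.3, 61.2 and 48.4 CPM under DMSO, 36.4, 26.1 and 25.2 under CB-103 and 31.3, 35.1 and 26.5 under GSI in NT cells. Its KO levels were 43.2, 47.1 and 57.1 CPM under DMSO, 24.3, 22.5 and 27.2 under CB-103 and 28.8, 28.5 and 31.4 under GSI. Its replicates were wide, but no treated library reached a DMSO library of its genotype, and with CB-103 it was 1.79-fold lower in NT (adjusted p = 5.15e-05) and 1.99-fold lower in KO cells (adjusted p = 1.40e-05). POLR1C, a subunit shared with RNA polymerase III, stood at 32.6, 30.0 and 30.2 CPM under DMSO, 22.4, 21.0 and 20.05 under CB-103 and 20.5, 18.4 and 17.9 under GSI in NT cells. Corresponding KO values were 34.2, 28.9 and 29.9 CPM under DMSO, 20.9, 19.9 and 20.8 under CB-103 and 26.7, 24.1 and 24.2 under GSI, so that it changed with GSI by -0.71 in NT and -0.31 in KO cells.

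POLR1E, part of the polymerase's dissociable TFIIF-like pair, stood at 34.6, 33.9 and 32.8 CPM under DMSO, 36.8, 33.0 and 34.8 under CB-103 and 26.3, 27.97 and 26.1 under GSI in NT cells. With the knockout it had 34.0, 32.6 and 33.7 CPM under DMSO, 40.6, 34.4 and 37.4 under CB-103 and 33.1, 32.9 and 30.5 under GSI. It fell only with GSI in NT cells (-0.33 ± 0.062, adjusted p = 0.000662) among the 4 inhibitor comparisons, and its rise with CB-103 in KO cells (0.16 ± 0.061, adjusted p = 0.0345) was lost without NT CB-103 replicate 3, NT GSI replicate 3, any of the 3 KO DMSO libraries, KO CB-103 replicate 1 or 3 (from 0.10 to 0.21 over all left-out libraries), and without all replicates 1. RRN3, which links the polymerase to its initiation complex, stood at 65.1, 68.7 and 67.3 CPM under DMSO, 69.3, 68.1 and 70.6 under CB-103 and 56.2, 56.0 and 57.5 under GSI in NT cells. KO cells had 65.4, 62.9 and 68.6 CPM under DMSO, 65.8, 58.9 and 65.3 under CB-103 and 64.2, 67.8 and 66.9 under GSI. RRN3 fell with GSI in NT cells by 0.25 on the log2 scale (adjusted p = 0.00117) and was not called in the other 3 inhibitor comparisons (log2 0.05, -0.05 and 0.02). UBTF, the upstream binding factor on ribosomal DNA, stood at 257, 264 and 257 CPM under DMSO, 226, 213 and 202 under CB-103 and 242, 239.8 and 232 under GSI in NT cells. In KO cells it was at 233, 229 and 223 CPM under DMSO, 234, 226 and 238 under CB-103 and 248.9, 235 and 215 under GSI. CB-103 libraries were lowest in NT cells (-0.28 ± 0.052, adjusted p = 0.000158) but overlapped DMSO in KO cells (0.03 ± 0.052, adjusted p = 0.716).

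TAF1D, a TATA-binding-protein-associated factor of the polymerase I promoter selectivity complex, went the opposite way. It stood at 197, 202 and 218 CPM under DMSO, 380.0, 371 and 393 under CB-103 and 195, 178 and 191 under GSI in NT cells. The KO libraries had 166, 160.3 and 154 CPM under DMSO, 221, 209 and 222 under CB-103 and 144, 147 and 145 under GSI. The CB-103 libraries were above all others of their genotype, a rise of 1.85-fold in NT (adjusted p = 3.47e-11) and 1.36-fold in KO cells (adjusted p = 6.56e-07). With GSI it was not called in NT cells (-0.13 ± 0.049, adjusted p = 0.0628). With the replicate number as a block, which the check of pairing allows for the NT comparisons, TAF1D (-0.13) and UBTF (-0.13) were also called lower with GSI, so that all 40 members were, as were 3119 of the 17346 genes tested, against 2600 without the block.

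The 3 members that are core proteins of the box C/D snoRNP, which guides 2′-O-methylation, fell with GSI in NT cells, but NOP58 rose with CB-103. Among all tested genes, 15.0% fell with GSI and 29.5% rose with CB-103 there. FBL, the methyltransferase fibrillarin (chr19:39834458-39846414), stood at 288, 272 and 266 CPM under DMSO, 181, 177 and 172 under CB-103 and 194, 207 and 195 under GSI in NT cells. Its KO levels were 252, 238 and 249.8 CPM under DMSO, 189.8, 181 and 197 under CB-103 and 238, 216 and 219.6 under GSI. DMSO libraries were highest in NT cells, and with GSI the gene fell in NT cells (-0.47 ± 0.050, adjusted p = 1.89e-06) and was not called in KO cells (-0.14 ± 0.050, adjusted p = 0.0692). NOP56, a core protein that bridges the particle, stood at 280.3, 261 and 285 CPM under DMSO, 160.5, 146 and 150.2 under CB-103 and 220.1, 184 and 194 under GSI in NT cells. Corresponding KO values were 282, 282 and 273 CPM under DMSO, 159, 156 and 149 under CB-103 and 202, 213 and 208 under GSI. CB-103 lowered NOP56 1.81-fold in NT and 1.81-fold in KO cells, with all CB-103 libraries under all GSI libraries. NOP58, its partner, stood at 131, 119.8 and 122 CPM under DMSO, 169, 147 and 158 under CB-103 and 110.3, 84.6 and 93.1 under GSI in NT cells. With the knockout it had 134, 119.6 and 119.7 CPM under DMSO, 139, 109 and 135 under CB-103 and 113, 108 and 107 under GSI. In NT cells NOP58 rose under CB-103 (0.35 ± 0.093, adjusted p = 0.0039) and was not called in KO cells (0.04 ± 0.094, adjusted p = 0.78), and this difference between genotypes did not pass the test of the interaction (-0.31 ± 0.132, adjusted p = 0.133).

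The 4 proteins of the box H/ACA snoRNP, which guides pseudouridylation, all fell with both inhibitors in NT cells. Among all tested genes, 28.7% fell with CB-103 and 15.0% with GSI there. DKC1, the pseudouridine synthase dyskerin, stood at 247, 236 and 233 CPM under DMSO, 171, 156 and 150.03 under CB-103 and 191, 175 and 171 under GSI in NT cells. KO cells had 231, 218 and 215 CPM under DMSO, 185, 158 and 171 under CB-103 and 200.4, 179.6 and 181 under GSI. It fell 1.499-fold with CB-103 and 1.33-fold with GSI in NT cells, without overlap. NHP2 fell most of the 4 with CB-103, from 106 ± 6.96 to 52.6 ± 2.06 CPM in NT cells (-1.01 ± 0.115, adjusted p = 5.60e-07), and by less with GSI (-0.44 ± 0.114, adjusted p = 0.00836). GAR1 changed by -0.26 with CB-103 and -0.49 with GSI in NT cells, and its fall with CB-103 was not called in either genotype when only protein-coding transcripts were counted, a setting added after seeing the data. NOP10, the smallest of the 4 proteins, stood at 37.8, 37.3 and 36.7 CPM under DMSO, 26.7, 25.0 and 26.2 under CB-103 and 32.1, 33.6 and 30.3 under GSI in NT cells. In KO cells it was at 44.3, 43.8 and 46.4 CPM under DMSO, 35.3, 33.7 and 39.1 under CB-103 and 46.3, 49.8 and 49.1 under GSI. It was higher in KO than in NT cells under each treatment, without overlap. While it fell with GSI in NT cells (-0.22 ± 0.058, adjusted p = 0.00987), KO cells gave no call (0.11 ± 0.057, adjusted p = 0.201). In NT cells the fall lost its call without NT GSI replicate 3, without all replicates 1, when scaled by library totals and with protein-coding transcripts only (from -0.28 to -0.19 over all left-out libraries).

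For small-subunit factors, all 9 fell with GSI in both genotypes, and 7 of 9 fell with CB-103 in NT cells. Among all tested genes, 15.0% in NT and 9.58% in KO cells fell with GSI, and 28.7% fell with CB-103 in NT cells. UTP20, a large scaffold of the processome, stood at 116, 117 and 114 CPM under DMSO, 69.4, 70.0 and 66.7 under CB-103 and 65.0, 69.7 and 63.2 under GSI in NT cells. The KO libraries had 132, 126 and 131 CPM under DMSO, 76.3, 68.8 and 73.7 under CB-103 and 79.9, 78.6 and 74.6 under GSI. Treated libraries were well apart from DMSO in both genotypes, with changes of -0.75 and -0.81 in NT and -0.83 and -0.74 in KO cells. BYSL, bystin, needed for late steps of the small subunit, stood at 63.9, 63.1 and 62.7 CPM under DMSO, 31.9, 27.4 and 30.8 under CB-103 and 37.2, 34.4 and 36.7 under GSI in NT cells. Its KO levels were 64.9, 61.0 and 57.5 CPM under DMSO, 34.0, 27.3 and 30.9 under CB-103 and 42.7, 39.2 and 38.6 under GSI. CB-103 took it lower than GSI in NT (-0.27 ± 0.075, adjusted p = 0.00578) and KO cells (-0.39 ± 0.075, adjusted p = 0.000346), though the call in NT cells was lost without NT CB-103 replicate 2 (-0.19, adjusted p = 0.0506). NAT10, which acetylates cytidines of 18S ribosomal RNA, stood at 241, 242 and 237 CPM under DMSO, 167, 159 and 159 under CB-103 and 160.1, 159 and 156 under GSI in NT cells. Corresponding KO values were 174, 173 and 172 CPM under DMSO, 132, 117 and 125 under CB-103 and 136, 120.2 and 129 under GSI. NAT10 fell with both inhibitors in NT cells (-0.57 ± 0.049 and -0.60 ± 0.049), and each KO library was below each NT library of the same treatment.

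Several small-subunit factors were lower under GSI than under CB-103. RRP12, an export factor, differed from DMSO by -0.08 with CB-103 (not called) and -0.66 with GSI in NT cells. UTP4, a member of the early processome, differed by -0.05 with CB-103 (not called) and -0.49, and RRP9, a U3 snoRNP protein, by -0.24 and -0.86. The call of RRP9 with CB-103 was lost without NT DMSO replicate 1 or NT CB-103 replicate 2 (from -0.28 to -0.17 over all left-out libraries), and without all replicates 1. WDR43, another processome protein, fell by 0.19 and 0.67 on the log2 scale, with the former not called when scaled by library totals. The direct comparison of the inhibitors in NT cells called all 4 higher under CB-103 (log2 0.58, 0.45, 0.62 and 0.48). NOP14 and WDR75, also processome proteins, changed by -0.33 and -0.53 with CB-103 and by -0.50 and -0.55 with GSI in NT cells.

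The large-subunit factors held the steepest falls. PPAN, a Brix-domain protein of early large-subunit precursors (chr19:10106289-10111634), stood at 348, 326 and 339 CPM under DMSO, 99.5, 86.8 and 99.7 under CB-103 and 86.4, 81.8 and 90.8 under GSI in NT cells. With the knockout it had 279, 272 and 291 CPM under DMSO, 73.9, 79.5 and 68.4 under CB-103 and 73.7, 69.0 and 68.4 under GSI. All 12 treated libraries were far below all 6 DMSO libraries, and the falls were 3.54-fold with CB-103 and 3.91-fold with GSI in NT and 3.798-fold and 3.99-fold in KO cells (largest adjusted p = 3.63e-13). PPAN shares 56.0% of its exon bases with the readthrough gene PPAN-P2RY11 on the same strand, which held 182.5 reads per library on average against 5774 for PPAN, so the split between the pair is uncertain.

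BOP1, PES1 and WDR12 form the PeBoW complex, and only BOP1 was called in all 4 inhibitor comparisons. BOP1 stood at 68.5, 71.6 and 69.2 CPM under DMSO, 22.6, 22.5 and 20.5 under CB-103 and 37.8, 37.9 and 37.7 under GSI in NT cells. KO cells had 65.8, 64.6 and 68.4 CPM under DMSO, 27.4, 25.5 and 24.5 under CB-103 and 44.2, 41.2 and 41.7 under GSI. It was lowest under CB-103 and intermediate under GSI, without overlap, with falls of 3.19-fold and 1.85-fold in NT cells. PES1 fell with GSI (log2 -0.68 in NT and -0.40 in KO cells) but was not called with CB-103 (-0.09 ± 0.049, adjusted p = 0.128 in NT and -0.07 ± 0.050, adjusted p = 0.237 in KO cells). WDR12, which varied most between replicates, fell in NT cells with CB-103 (-0.83 ± 0.233, adjusted p = 0.00544) and with GSI (-0.76 ± 0.233, adjusted p = 0.0231). The latter call was lost without NT DMSO replicate 1 or NT GSI replicate 3 (from -0.92 to -0.55 over all left-out libraries).

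NOP16, a factor of the pre-60S particle, stood at 37.6, 37.4 and 36.9 CPM under DMSO, 17.0, 17.2 and 17.803 under CB-103 and 18.4, 17.2 and 18.7 under GSI in NT cells. In KO cells it was at 34.0, 36.3 and 32.9 CPM under DMSO, 16.7, 15.2 and 15.6 under CB-103 and 21.1, 22.7 and 22.5 under GSI. Both inhibitors brought it under the DMSO range in both genotypes, with changes of -1.10 and -1.04 in NT cells, and GSI less so in KO cells (-0.64). RRS1, needed to place the 5S ribosomal RNA particle, stood at 12.4, 12.1 and 12.3 CPM under DMSO, 8.22, 7.71 and 7.37 under CB-103 and 6.31, 6.99 and 5.95 under GSI in NT cells. The KO libraries had 11.1, 11.97 and 12.3 CPM under DMSO, 7.58, 6.07 and 6.30 under CB-103 and 7.51, 8.54 and 7.43 under GSI. Its levels were the lowest of all members on the CPM scale, and it fell in all 4 comparisons (log2 -0.66, -0.94, -0.83 and -0.59). EBNA1BP2, a partner of early large-subunit assembly, stood at 144, 139 and 139.7 CPM under DMSO, 102, 93.9 and 100.03 under CB-103 and 87.4, 86.4 and 82.8 under GSI in NT cells. Its KO levels were 154, 150.3 and 157 CPM under DMSO, 111, 106 and 118 under CB-103 and 115, 121 and 127 under GSI. It fell in all 4 comparisons, least with GSI in KO cells (-0.35 ± 0.050, adjusted p = 8.17e-05). NOP2, a cytosine methyltransferase of 28S ribosomal RNA, fell by 0.46 and 0.57 on the log2 scale in NT cells, LAS1L of the spacer-cutting complex by 0.52 and 0.50, MRTO4 by 0.52 and 0.76, and NIP7 by 0.56 and 0.47, with CB-103 given first.

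GNL3, nucleostemin, a nucleolar GTPase (chr3:52681156-52694492), moved in opposite directions with the 2 inhibitors. It stood at 202, 187 and 206 CPM under DMSO, 362, 333 and 357 under CB-103 and 128, 115 and 123 under GSI in NT cells. Corresponding KO values were 198, 186 and 202 CPM under DMSO, 274, 247 and 280.5 under CB-103 and 145, 159 and 154 under GSI. In both genotypes the CB-103 libraries were above and the GSI libraries below the DMSO libraries. In NT cells it rose with CB-103 (0.82 ± 0.060, adjusted p = 1.69e-09) and fell with GSI (-0.70 ± 0.061, adjusted p = 1.63e-07). The rise (0.45 ± 0.060, adjusted p = 5.82e-06) and the fall (-0.36 ± 0.061, adjusted p = 0.000433) were also called in KO cells.

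The 5 abundant nucleolar proteins all fell with GSI in NT cells, as did 15.0% of all tested genes. NPM1 fell in NT cells with both inhibitors but was called in KO cells with neither. NPM1, nucleophosmin, a histone and ribosome chaperone of the granular nucleolus, stood at 1455, 1415 and 1440.0 CPM under DMSO, 1093, 965 and 986 under CB-103 and 1048, 1164 and 1063 under GSI in NT cells. With the knockout it had 1476, 1396 and 1424 CPM under DMSO, 1465, 1333 and 1430.3 under CB-103 and 1460.3, 1380.0 and 1367 under GSI. All treated NT libraries were below all DMSO libraries (-0.50 ± 0.056, adjusted p = 4.16e-07 for CB-103 and -0.40 ± 0.056, adjusted p = 4.42e-05 for GSI), while treated and DMSO libraries overlapped in KO cells (-0.02 ± 0.056, adjusted p = 0.768 and -0.03 ± 0.056, adjusted p = 0.772). NCL, nucleolin, stood at 1301, 1192 and 1145 CPM under DMSO, 825, 650.2 and 658 under CB-103 and 824, 753 and 697 under GSI in NT cells. KO cells had 1335, 1051 and 1076 CPM under DMSO, 879, 651 and 729 under CB-103 and 1041, 827 and 769 under GSI. Replicate 1 was the highest of its group in all 6 groups, and the call with GSI in KO cells (-0.39 ± 0.130, adjusted p = 0.0421) was lost without any 1 library other than KO CB-103 replicate 2 and the replicates 1 of the groups other than KO DMSO (from -0.53 to -0.27 over all left-out libraries). DDX21, an RNA helicase of ribosomal DNA transcription and processing, stood at 305, 305 and 302 CPM under DMSO, 300.4, 293 and 293 under CB-103 and 178, 187 and 173 under GSI in NT cells. In KO cells it was at 319.9, 299 and 322 CPM under DMSO, 288, 248 and 279 under CB-103 and 224, 213 and 217 under GSI. GSI lowered it in both genotypes, whereas with CB-103 it was not called in NT cells (-0.04 ± 0.051, adjusted p = 0.537) and was lower in KO cells (-0.21 ± 0.051, adjusted p = 0.00251). NOLC1, a snoRNP chaperone, fell by 0.41 on the log2 scale with CB-103 and 0.83 with GSI, and PA2G4, a ribosome-associated growth regulator, by 0.61 and 0.46 in NT cells.

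**Figure D2:**
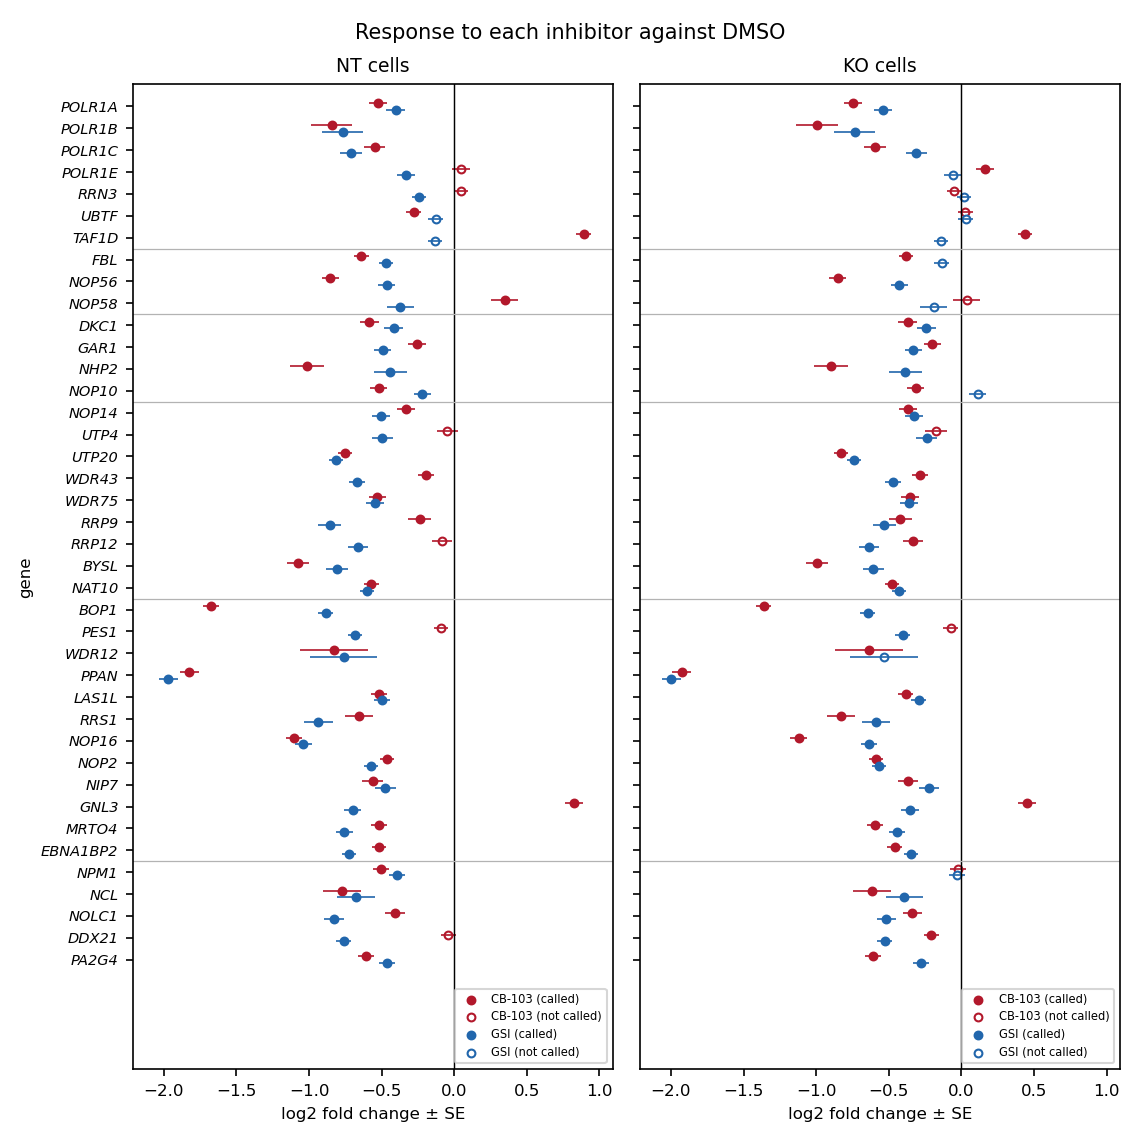
Log2 fold change of each member with CB-103 (red) and GSI (blue) against DMSO, in NT cells (left) and KO cells (right), with bars of 1 standard error derived from edgeR's F statistic. Filled points passed an adjusted p of 0.05; PPAN lies near -2 in both panels, and GNL3 and TAF1D lie to the right of 0 only for CB-103.

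Set against each other in NT cells, CB-103 left 17 members higher and 9 lower than GSI (29.2% and 27.1% of all tested genes, median 0.08). The widest gap was GNL3 (1.52 ± 0.062, adjusted p = 5.75e-13), followed by TAF1D (1.02 ± 0.049), DDX21 (0.72 ± 0.052) and NOP58 (0.72 ± 0.094). BOP1 (-0.79 ± 0.053, adjusted p = 5.43e-10), NHP2 (-0.57 ± 0.116) and NOP56 (-0.39 ± 0.059) were lower under CB-103, but NOP56 was at 0.04 (adjusted p = 0.543) when only protein-coding transcripts were counted. In KO cells 8 were higher and 11 lower (24.7% and 23.1% of all genes, median -0.08). The lower count became 17, and the higher count 5, without KO CB-103 replicate 1. In NT cells the lower count became 5 without NT CB-103 replicate 2, NT CB-103 replicate 3 or NT GSI replicate 2. Doses are not known here, so these are differences between treatments as applied.

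Under DMSO the genotypes differed in these genes about as often as in all genes tested. Of the 40 members, 5 were lower and 3 higher in KO than in NT cells, where 11.7% of all genes were lower and 9.78% higher, and the median was -0.04. NAT10 (-0.47 ± 0.049, adjusted p = 1.59e-06), TAF1D (-0.36 ± 0.049, adjusted p = 3.03e-05), PPAN (-0.27 ± 0.062, adjusted p = 0.00441), UBTF (-0.19 ± 0.052) and FBL (-0.16 ± 0.050) were lower, and NOP10 (0.27 ± 0.057, adjusted p = 0.00242), POLR1A (0.25 ± 0.062) and UTP20 (0.16 ± 0.048) were higher. The count of lower members was 3 without NT DMSO replicate 2 or KO DMSO replicate 3, and that of higher members was 5 when scaled by library totals and 1 with replicates 2 and 3 only. Scaling by library totals left 2530 of all genes higher and 1573 lower, against 1697 and 2023. UBTF lost its call without NT DMSO replicate 2 (-0.17) or KO DMSO replicate 3 (-0.18), and FBL without NT DMSO replicate 1 or 2 or KO DMSO replicate 2 or 3 (-0.18 to -0.12). UTP20 lost its call without NT DMSO replicate 1 or 3, KO DMSO replicate 1 or 3 or KO CB-103 replicate 3 (0.14 to 0.16), while the calls of NAT10, TAF1D, PPAN, NOP10 and POLR1A held without any 1 library. Counting only protein-coding transcripts, PPAN differed by -0.03 ± 0.071.

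Under CB-103, 9 members were lower and 4 higher in KO cells (16.5% and 20.4% of all genes, median 0.00). TAF1D (-0.81 ± 0.049, adjusted p = 1.80e-09) and GNL3 (-0.39 ± 0.060, adjusted p = 6.03e-05), which had risen with CB-103, were lower in KO cells. NPM1 (0.47 ± 0.056, adjusted p = 3.72e-06), NOP10 (0.47 ± 0.059, adjusted p = 7.22e-06), BOP1 (0.24 ± 0.054) and EBNA1BP2 (0.18 ± 0.050) were higher, the last not called without NT CB-103 replicate 2 (0.13) or KO CB-103 replicate 3 (0.12). Under GSI the balance shifted: 21 members were higher and 3 lower in KO cells, where 18.8% of all genes were higher and 15.0% lower, and the median was 0.19 against 0.00 for all genes. NOP10 (0.60 ± 0.058, adjusted p = 6.78e-07), EBNA1BP2 (0.50 ± 0.050, adjusted p = 1.02e-06), POLR1C (0.40 ± 0.075, adjusted p = 0.000513) and NPM1 (0.36 ± 0.056, adjusted p = 9.44e-05) led. The 3 lower members were TAF1D, NAT10 and PPAN, which were also lower under DMSO and CB-103.

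**Figure D3:**
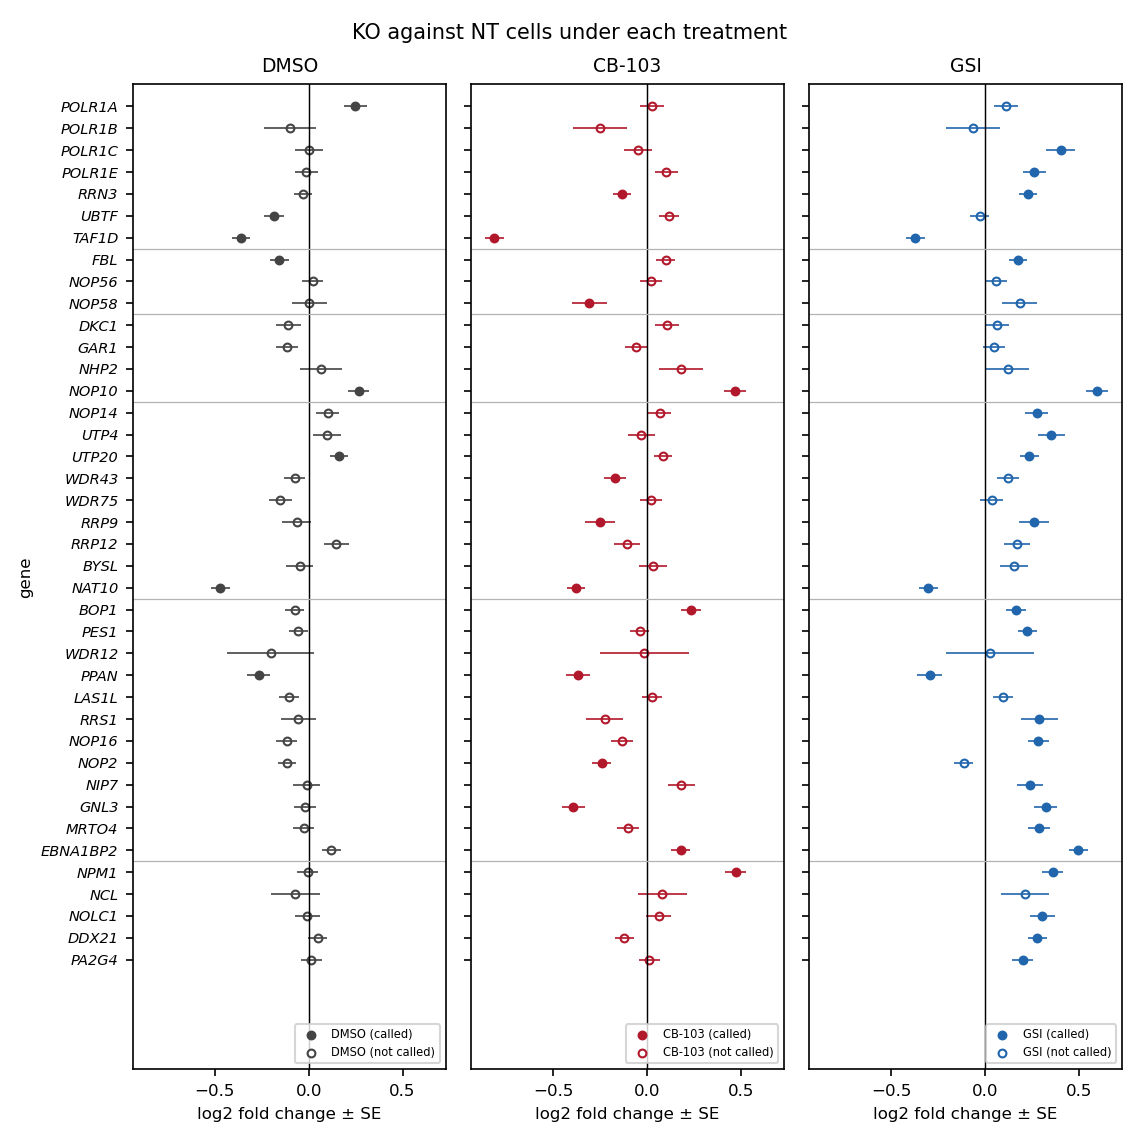
Log2 fold change of each member between KO and NT cells under DMSO (left), CB-103 (middle) and GSI (right), with bars of 1 standard error derived from edgeR's F statistic and filled points at an adjusted p under 0.05. Under GSI most points lie right of 0, while TAF1D, NAT10 and PPAN lie left of 0 in all 3 panels.

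The interaction contrast, the response of KO cells minus that of NT cells, tested whether genotype changed a response. For CB-103 it called 4 members higher (10.3% of all genes) and 2 lower (4.34%). NPM1 (0.48 ± 0.079, adjusted p = 0.000583) was the largest, followed by BOP1 (0.31 ± 0.074, adjusted p = 0.00822), UBTF (0.30 ± 0.073, adjusted p = 0.0094) and FBL (0.26 ± 0.071, adjusted p = 0.0202), which all fell less or not at all in KO cells. Scaled by library totals, 1242 of all genes were higher and 1404 lower, against 1780 and 753, and 7 members were lower. TAF1D (-0.45 ± 0.069, adjusted p = 0.000313) and GNL3 (-0.37 ± 0.085, adjusted p = 0.00682) rose less in KO cells. Counting only protein-coding transcripts left NPM1 called (0.36 ± 0.088) and the other 5 not. For GSI it called 9 members higher (2.10% of all genes) and none lower (0.692%), all with a smaller fall in KO cells or none, and the median over the members was 0.22 against 0.02 for all genes. POLR1C (0.40 ± 0.105, adjusted p = 0.0491), NOP16 (0.40 ± 0.080, adjusted p = 0.0216) and EBNA1BP2 (0.38 ± 0.070, adjusted p = 0.0163) were the largest. This count is not firm, since it was 0 without NT DMSO replicate 1, without KO GSI replicate 3 or without all replicates 1, and 15 without NT GSI replicate 2 or KO CB-103 replicate 1 or 2. It was 2 without NT DMSO replicate 2, NT GSI replicate 1 or 3, KO DMSO replicate 2 or KO GSI replicate 2, 3 without NT DMSO replicate 3 and 5 without KO DMSO replicate 1. Higher calls over all genes swung too, to 43 without NT DMSO replicate 1, 56 without KO GSI replicate 3 and 41 without all replicates 1. They numbered 1200, 774 and 944 without NT GSI replicate 2, KO CB-103 replicate 1 and KO CB-103 replicate 2, against 364. DESeq2's Wald test called 14, with 919 of all genes higher. With scaling by library totals, edgeR called 2, with 96 of all genes higher and 218 lower against 364 and 120. For members lower, edgeR at an unadjusted p under 0.05 called none, as did DESeq2. EBNA1BP2 was lost only without NT DMSO replicate 1 or KO GSI replicate 3 among single libraries (from 0.34 to 0.43 over all left-out libraries). MYC, a factor that binds the E-box, stood at 32.5, 32.4 and 29.5 CPM in NT GSI and 37.0, 34.6 and 34.6 in KO GSI libraries, and its part in these differences was not tested.

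Members with and without an E-box near the start are set side by side here without a test. All 11 with one fell with GSI in NT cells (median -0.67, from -0.86 to -0.22), as did 21 of the 23 others with a window (median -0.50) and 15.0% of all tested genes. With CB-103, 8 of the 11 fell (median -0.33) and 20 of the 23 (median -0.55), where 28.7% of all tested genes fell. Members that carry snoRNA genes inside them, which in human cells are cut from introns, made up 9 of 40 (22.5%), against 1.78% of the 13305 protein-coding genes tested. The 3 members that rose with CB-103 in NT cells, TAF1D, GNL3 and NOP58, were all among these 9, while the other 6 hosts (POLR1C, NOP56, DKC1, WDR43, PPAN and NCL) fell. Of all tested genes, 29.5% rose in that comparison. In KO cells 2 of the 9 hosts rose with CB-103 and 6 fell (24.9% and 23.7% of all tested genes), while 1 of the 31 other members rose, POLR1E. The split by hosting was not among the planned results, and calls over all 237 hosts among the protein-coding genes tested were not counted. Whether hosting plays a part was not tested.

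Transcript estimates showed which RNAs of these genes moved. Over all members, transcripts annotated as targets of nonsense-mediated decay (NMD), a pathway that degrades RNAs with a premature stop, made up 2.22% ± 0.191 (SD, n = 3) of the members' TPM in NT DMSO libraries and 8.76% ± 0.165 under CB-103. Under GSI the share was 2.66% ± 0.115. In KO cells it was 2.07% ± 0.0759 under DMSO, 4.54% ± 0.112 under CB-103 and 2.17% ± 0.143 under GSI. Over all transcripts measured, the share moved from 3.12% ± 0.0868 to 3.74% ± 0.0599 with CB-103 in NT cells. As shares of reads the values were lower, at 1.89% in NT DMSO and 6.35% in NT CB-103 libraries.

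Summed over the members, NMD-class TPM was 303 higher in NT CB-103 than in NT DMSO libraries, and TAF1D alone differed by 289. Its NMD-class transcripts summed to 97.4, 111 and 102.98 TPM under DMSO and 399, 384 and 395 TPM under CB-103 in NT cells. In KO cells they went from 105, 98.0 and 92.9 to 224, 201 and 219 TPM. Its retained-intron class went the other way, from 139.8, 138 and 153 to 81.5, 97.7 and 101 TPM in NT cells, with no overlap in either class. The NMD class thus held 36.7% ± 2.54 of TAF1D TPM in NT DMSO and 72.2% ± 3.59 in NT CB-103 libraries, against 38.2% ± 2.92 under GSI. When only protein-coding transcripts were counted, TAF1D rose by 0.64 ± 0.131 in NT cells and was not called in KO cells (0.31 ± 0.137).

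The rise of GNL3 lay partly in transcripts scarcely seen under DMSO. GNL3-201, whose first exon spans chr3:52686016-52686202, stood at 2.84, 2.64 and 1.79 TPM in NT DMSO and 36.5, 49.7 and 51.1 TPM in NT CB-103 libraries. The short GNL3-207 went from 1.96, 0.437 and 1.08 to 53.9, 55.1 and 59.5 TPM. The main transcript GNL3-202, whose first exon spans chr3:52685920-52686105, was at 121, 112 and 107 TPM under DMSO, 159, 126 and 134 under CB-103 and 79.1, 74.4 and 67.1 under GSI. In KO CB-103 libraries GNL3-201 reached 20.8, 22.9 and 23.5 TPM and GNL3-207 23.3, 20.4 and 24.6 TPM, all under the NT CB-103 libraries, and in GSI libraries both stayed below 2.3 TPM. The E-box stretch printed for GNL3 lies inside the first exons of GNL3-201 and GNL3-202. Its E-box is within 20 bases of the RefSeq start, but begins further than 20 bases into either of these transcripts. For NOP58 the protein-coding transcript went from 77.2, 80.5 and 75.9 to 91.9, 98.4 and 102 TPM in NT cells, and NMD-class NOP58-202 from 1.54, 4.30 and 2.22 to 7.22, 10.6 and 9.78 TPM.

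**Figure D4:**
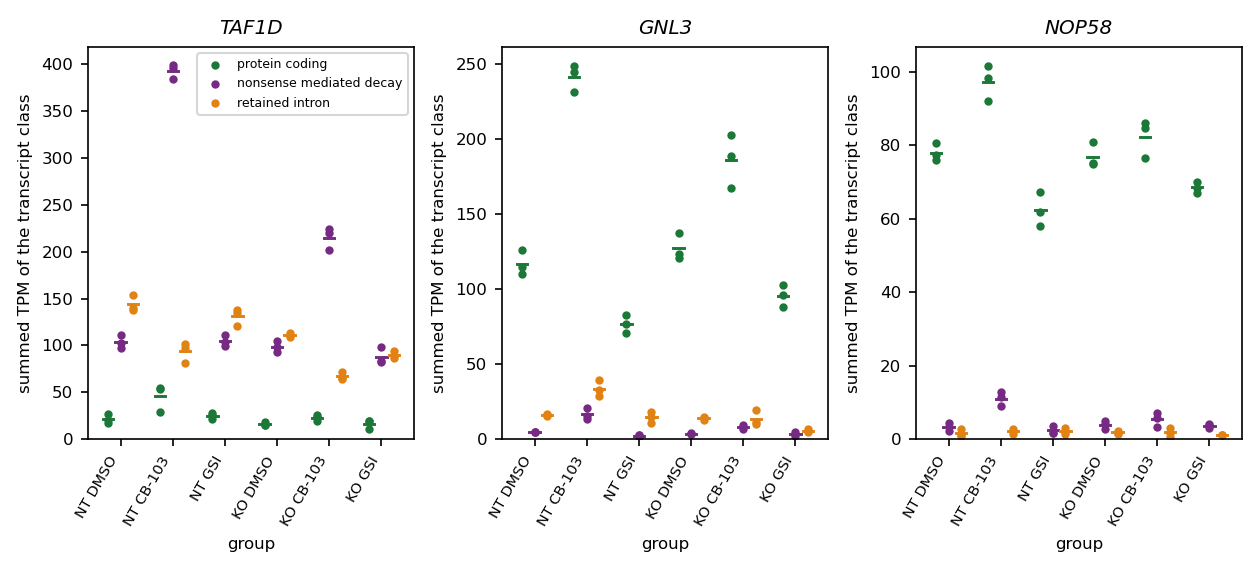
Summed TPM of protein-coding (green), NMD (purple) and retained-intron (orange) transcripts of TAF1D, GNL3 and NOP58 in each group, with 1 point per library and a bar at the group mean. The NMD class of TAF1D reaches 384 to 399 TPM in NT CB-103 libraries and 201 to 224 TPM in KO CB-103 libraries.

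In NOP56 and PPAN, transcripts other than the coding message were lower under the inhibitors. NOP56-216, annotated as a processed transcript, went from 48.5, 55.8 and 56.5 TPM under DMSO to 5.27, 7.13 and 6.89 under CB-103 and 21.4, 31.9 and 27.7 under GSI in NT cells. The coding NOP56-201 went only from 83.2, 77.9 and 78.0 to 71.7, 69.2 and 68.6 TPM with CB-103. Counting protein-coding transcripts alone, NOP56 changed by -0.21 ± 0.059 with CB-103 in NT cells, against -0.85 ± 0.059 for the whole gene. It was not called with GSI in KO cells, and turned from -0.39 to 0.04 between CB-103 and GSI in NT cells. PPAN was lower in both kinds of transcript, where its protein-coding class went from 179, 185 and 169 to 61.6, 57.4 and 63.0 TPM and its retained-intron class from 137, 118 and 141 to 29.4, 27.8 and 32.2 TPM. Estimates of overlapping transcripts rest on how shared reads were divided among them.

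A list of 129 other ribosome biogenesis genes, all tested, also moved mostly lower, with medians nearer to 0. In NT cells 65 fell and 21 rose with CB-103 (28.7% and 29.5% of all tested genes, median -0.19). With GSI, 102 fell and none rose (15.0% and 9.67% of all genes, median -0.42). In KO cells 65 fell and 20 rose with CB-103 (23.7% and 24.9% of all genes), and 73 fell and 1 rose with GSI (9.58% and 9.69%, median -0.24). Under GSI, 57 of the 129 were higher and 7 lower in KO than in NT cells (18.8% and 15.0% of all genes, median 0.16). By role, CB-103 in NT cells lowered 4 of 8 further RNA polymerase I genes, 5 of 11 snoRNP and assembly genes, 23 of 46 small-subunit genes, 25 of 51 large-subunit genes and 8 of 13 genes of the RNA exosome, which trims precursor RNA. CB-103 raised 1, 2, 6, 11 and 1 of these, in the same order, and GSI lowered 3, 9, 43, 38 and 9.

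Among them POLR1G, a polymerase I subunit, fell most with CB-103 (-2.17 ± 0.112, adjusted p = 1.49e-11) and with GSI (-0.92 ± 0.105). TAF1B, of the same selectivity complex as TAF1D, fell with CB-103 (-1.02 ± 0.084), as did the processome proteins PWP2 (-1.32 ± 0.083) and WDR3 (-1.01 ± 0.072) and the exosome-associated MPHOSPH6 (-1.11 ± 0.066). Rises with CB-103 included NVL, an ATPase that releases factors from pre-60S particles (1.13 ± 0.077), RRP8 (1.06 ± 0.112), SBDS, which frees the subunit for joining (0.94 ± 0.051), RIOK2 (0.90 ± 0.073), DDX49 (0.83 ± 0.050) and EXOSC1 (0.70 ± 0.058). With GSI the next largest falls were RPF2 (-0.84 ± 0.136), EXOSC5 (-0.84 ± 0.072), MAK16 (-0.83 ± 0.096), LYAR (-0.82 ± 0.063), PNO1 (-0.81 ± 0.084) and ESF1 (-0.81 ± 0.067).

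**Figure D5:**
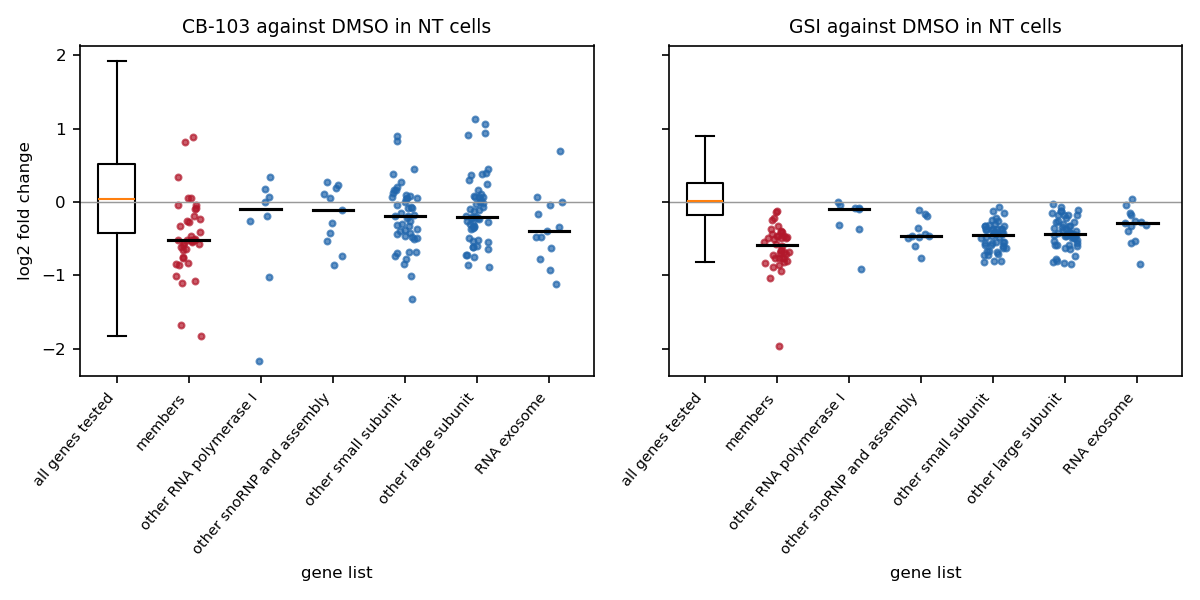
Log2 fold change with CB-103 (left) and GSI (right) against DMSO in NT cells, for all tested genes (box of quartiles with median, whiskers to 1.5 interquartile ranges, outliers not drawn), the 40 members (red) and the other ribosome biogenesis lists (blue), with 1 point per gene and a bar at the median. With GSI nearly every point lies below 0, while with CB-103 the lists hold both falls and rises.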

How the data were processed

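Poly(A)-selected RNA of 18 RPMI-8402 libraries was analysed from 2 kinds of deposited values. The authors deposited estimated counts per gene, rounded to whole numbers, and TPM with estimated counts per transcript for each library. Of tools, Salmon 1.4.0, HISAT2 2.2.1, FastQC 0.11.9 and bcl2fastq 2.20 are listed with hg38, but without roles, per the submitters' processing notes, and how gene values were made from transcripts is not given in the sources used here. Gene counts were filtered with filterByExpr, scaled by trimmed means of M values (TMM, factors 0.954 to 1.03), and tested in 1 model with a mean per group by edgeR 4.0.16's quasi-likelihood test in R 4.3.3, with Benjamini-Hochberg adjustment over all 17346 genes, after the code was tested on simulated data. CPM values use the TMM-scaled library sizes, and changes are log2 values ± standard error. That error was derived as the absolute log2 change over the square root of edgeR's F statistic. Transcripts and coordinates were matched to GENCODE 29 (206601 of 206601), and promoter windows come from RefSeq.

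The members and the other lists were chosen with earlier results of these data known. All 40 members could be named. Values per library were given for 14 members chosen by name, for the 4 largest called falls and rises per comparison with DMSO or NT, and for the 3 largest called interactions per direction, while other genes were limited to the 3 largest called rises and falls per list. Same-numbered libraries deviated together in all 3 pairs for CB-103 and GSI against DMSO in NT cells (correlations 0.124 to 0.338 and 0.128 to 0.283 over genes), and in no other comparison were all pairs above 0.1. Pairs of unlike number reached 0.117 (NT DMSO 3 with NT CB-103 2) and 0.0930 (NT DMSO 2 with NT GSI 3). Pairing of replicates 2 and 3 is therefore uncertain. The alternatives were other scalings, no filter, DESeq2 1.42.0, the replicate block, libraries left out, gene sums of transcripts and, chosen after seeing the data, protein-coding transcripts only.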

Additional observations from a re-analysis of the deposited data

Results flagged for a closer look

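Responses of the following members differed between genotypes by the interaction term of edgeR's model with Benjamini-Hochberg adjustment over all genes tested, and each value is the log2 response of KO cells minus that of NT cells. For CB-103, 4 of 40 members were higher and 2 lower, where 10.3% and 4.34% of all genes were, a share near that of all genes. For GSI, 9 of 40 were higher, where 2.10% of all genes were. For CB-103 the differences were 0.48 for NPM1 (adjusted p = 0.000583), 0.31 for BOP1 (0.00822), 0.30 for UBTF (0.0094), 0.26 for FBL (0.0202), -0.37 for GNL3 (0.00682) and -0.45 for TAF1D (0.000313). For GSI they were 0.40 for POLR1C (0.0491), 0.40 for NOP16 (0.0216), 0.38 for EBNA1BP2 (0.0163), 0.37 for NPM1 (0.0286), 0.34 for GNL3 (0.0428), 0.33 for FBL (0.0277), 0.33 for NOP10 (0.0416), 0.31 for MRTO4 (0.0487) and 0.28 for PES1 (0.0453). Each of the 9 calls for GSI was lost without at least 1 single library, and of the 6 for CB-103 that of FBL was. With protein-coding transcripts only, 5 of the 6 calls for CB-103 were lost, all but that of NPM1, and 2 other members were called lower.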

How the results depend on the processing

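Medians of the members kept their sign in the 4 inhibitor comparisons under every setting run (from -0.55 to -0.46 and -0.61 to -0.51 in NT cells for CB-103 and GSI, from -0.43 to -0.35 and -0.42 to -0.34 in KO cells). Library totals gave 5 members higher in KO than NT cells under DMSO, 7 lower CB-103 interactions and 2 higher GSI interactions. No count filter gave 3 lower in KO cells under DMSO and 3 higher GSI interactions, and DESeq2's Wald test gave 14 of the latter. Replicates 2 and 3 only gave 1 and 7 members higher in KO cells under DMSO and CB-103, and 0 GSI interactions. Gene sums of transcripts gave 18 members lower under CB-103 than GSI in KO cells and 1 lower CB-103 interaction. Protein-coding transcripts only, a setting chosen after seeing the data, gave 19 and, for higher CB-103 interactions, 1. It turned NOP56 between CB-103 and GSI in NT cells to 0.042 (adjusted p = 0.543, from 7.4e-12 to 0.543 over all settings). The replicate block gave 7 members higher in KO cells under CB-103, 16 higher GSI interactions, and in NT cells 31 lower and 3 higher with CB-103 and 40 lower with GSI; it changed no other call in those NT comparisons. The cause of these shifts was not tested. Leaving out 1 library gave 3 to 5 members lower in KO cells under DMSO, 5 to 10 lower under CB-103 than GSI in NT cells, 9 to 17 lower and 5 to 9 higher in KO cells, and 0 to 15 higher GSI interactions. Higher GSI interactions over all genes ranged from 43 to 1200 with 1 library left out. They were 41 with replicates 2 and 3 only, 919 by DESeq2's Wald test and 949 with the block, against 364. As shares of reads, NMD transcripts made up 1.89%, 6.35% and 2.13% of the members' total under DMSO, CB-103 and GSI in NT cells and 1.78%, 3.63% and 1.84% in KO cells. With 250 bases before the start only, 17.6% of members held the E-box.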
